A study of Mus musculus with 2 samples.

Results

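The ribosomal protein genes of the cytosolic ribosome were examined for accessible chromatin in the stomach of newborn mice. Members were the protein-coding genes of GENCODE M21 (build mm10, GRCm38) whose symbol is Rpl or Rps followed by a digit, or Rplp0, Rplp1, Rplp2 or Rpsa, without the Rps6k kinase genes and without symbols ending in -ps and a number. This gave 86 of 21911 protein-coding genes. They comprised 46 genes of the large subunit, 31 genes of the small subunit, 8 paralogues (Rpl3l, Rpl7l1, Rpl10l, Rpl22l1, Rpl36al, Rpl39l, Rps27l and Rps27rt) and Rps19bp1. Rps19bp1 matches the symbol rule but encodes a protein that binds Rps19, so its values are given apart. The samples were stomach tissue of B6NCrl mice at 0 days after birth, as 2 biological replicates of a single group, 1 library per replicate, with no treatment or engineered allele in the labels. Both replicates carry the same donor in the labels, which do not say whether separate animals or pools were used, and sex was not collected. DNase-seq sequences the ends that the nuclease DNase I leaves in accessible DNA, and the deposited lists give peaks of at most 150 bp and wider hotspots for each replicate.

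With 1 group no conditions can be compared, and the members are not replicates of anything, so counts and ranks are set beside the same values over all protein-coding genes, without a test. The lists used held 139374 peaks in replicate 1 and 152779 in replicate 2 on the 19 autosomes, X and Y. Peaks that overlapped by at least 1 bp between replicates were joined, which left 105543 shared regions, typically 170 bp wide (median). Read numbers were not given in the sources used here, so the depth is unknown, and the intervals printed cover counting error only. In whole tissue, an open site in fewer cells and a less open site in each cell cannot be told apart. All 8 markers of stomach epithelium had a shared region within 1 kb of a start, as did 3 of 4 markers of gut smooth muscle and mesenchyme (Barx1 did not), and 1 of 8 markers of other tissues did (Ptprc). The share over all protein-coding genes was 66.4%.

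Each ribosome is built from ribosomal RNA and a set of ribosomal proteins, nearly all of them needed in equal numbers and made in every growing cell. Many mRNAs of ribosomal proteins and translation factors begin with a cytosine followed by an unbroken run of pyrimidines, the 5' terminal oligopyrimidine (TOP) motif, through which mTOR and Larp1 adjust their translation. Their promoters are known for starts within a pyrimidine tract and for sites of ETS factors, YY1 and Sp1. The genome also holds many copies of ribosomal protein mRNAs inserted by reverse transcription, and a few such copies or duplicates are genes of their own. Rpl3l is known from heart and skeletal muscle, and Rpl10l and Rpl39l from the testis.

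The letters at TOP-type starts are shown because they mark where these genes begin and can be set against the accessible region. Of the members with a promoter entry in the RefSeq table (66 of 86, assembly GRCm38), 6 had an annotated start in a run of at least 10 pyrimidines opening with C. Each line below gives 12 bases before the start and 18 bases from it, 5' to 3' on the gene's strand, read from the GRCm38 genome. Capitals mark the pyrimidine run from the annotated start.
Rps24 (chr14:24490706-24490735, plus strand): cagtgagcggtcCTCTTTTCCTCCTCTCCa
Rps2 (chr17:24720098-24720127, plus strand): cggcgcctccctCTTCTTCTTCTTCgggag
Rpl10 (chrX:74270845-74270874, plus strand): gcgtgggagcgtCTCTTTTCCTCTggcgcg
Rps25 (chr9:44407683-44407712, plus strand): gccaccgggcttCCTTTTTTTCCgacatct
Rps3 (chr7:99483634-99483663, minus strand): cgcgagccacttCCTTTCCTTTCagcggcg
Rps10 (chr17:27635227-27635256, minus strand): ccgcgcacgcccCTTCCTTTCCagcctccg
The strongest shared region of the promoter covered the printed start in 3 of these 6 genes, Rps24, Rps25 and Rps10. It lay just upstream of the start in Rps2, Rpl10 and Rps3. Rps24, a small subunit protein, had the longest run of any member, with 17 pyrimidines.

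The upstream letters of genes that stood at the ends of the range are shown next, together with those of the members without an accessible promoter. Each line gives the 120 bases before the outermost annotated start, 5' to 3' on the gene's strand. Capitals mark matches to any of the 8 strings searched in the promoters. Rps19 and Rpl27 had the highest signal ranks and Rps4x the lowest but one. Rpl39 and Rpl10 stand beside their paralogues Rpl39l and Rpl10l.
Rps19 (chr7:24884251-24884370, plus strand): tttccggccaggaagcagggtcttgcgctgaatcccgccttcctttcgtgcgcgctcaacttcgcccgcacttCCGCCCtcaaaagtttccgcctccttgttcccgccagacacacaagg
Rpl27 (chr11:101442178-101442297, plus strand): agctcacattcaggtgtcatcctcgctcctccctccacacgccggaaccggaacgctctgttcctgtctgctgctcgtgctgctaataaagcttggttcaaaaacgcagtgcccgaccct
Rps4x (chrX:102189395-102189514, minus strand): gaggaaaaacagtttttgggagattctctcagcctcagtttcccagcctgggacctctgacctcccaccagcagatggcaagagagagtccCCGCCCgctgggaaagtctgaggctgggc
Rpl39 (chrX:37085403-37085522, minus strand): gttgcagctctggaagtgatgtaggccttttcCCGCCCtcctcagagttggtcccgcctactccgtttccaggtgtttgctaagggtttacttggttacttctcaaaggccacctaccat
Rpl39l (chr16:10170106-10170225, plus strand): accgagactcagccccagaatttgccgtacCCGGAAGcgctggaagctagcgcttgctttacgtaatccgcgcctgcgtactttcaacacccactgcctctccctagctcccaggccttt
Rpl10 (chrX:74270692-74270811, plus strand): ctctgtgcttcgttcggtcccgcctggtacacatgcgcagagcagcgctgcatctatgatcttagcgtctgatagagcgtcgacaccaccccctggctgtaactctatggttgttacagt
Rpl10l (chr12:66284402-66284521, minus strand): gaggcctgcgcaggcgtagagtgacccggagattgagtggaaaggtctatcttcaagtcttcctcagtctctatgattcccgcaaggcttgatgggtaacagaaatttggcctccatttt
Rpl3l (chr17:24727700-24727819, plus strand): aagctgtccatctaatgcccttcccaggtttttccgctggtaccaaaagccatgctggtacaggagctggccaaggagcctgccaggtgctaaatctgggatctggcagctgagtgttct
Rps27rt (chr9:114982740-114982859, minus strand): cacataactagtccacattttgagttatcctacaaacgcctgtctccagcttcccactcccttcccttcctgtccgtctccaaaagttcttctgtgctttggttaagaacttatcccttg
Among the accessible genes, Rps19 held 11 CpG dinucleotides in this stretch, Rpl27 and Rpl10 held 8 each, Rpl39 held 3 and Rps4x held 2. Among those without a promoter region, Rpl39l held 9, Rpl10l 4, Rps27rt 2 and Rpl3l 1, so the counts overlapped. Rpl39l had more CpG than Rpl39, and it carried the ETS string, yet only Rpl39 had a shared region at its promoter. The strongest region of Rpl39 was centred 121 bp downstream of its 5' end. No shared region covered the stretch printed for Rpl39.

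Every gene of the large and small subunits was accessible at its promoter. A shared region fell within 1 kb of an annotated start in 82 of 86 members (95.3%, 95% Wilson interval 88.6 to 98.2), against 66.4% of all protein-coding genes. All 46 large subunit genes and all 31 small subunit genes were among them, as were 4 of 8 paralogues and Rps19bp1. The same 82 members were found with the peaks of replicate 1 alone (background 68.2%), with those of replicate 2 alone (69.4%) and with hotspots called in both replicates (67%). A shared region needs a peak in each list, so a single replicate could add members but hardly lose any. No member had promoter peaks in a single replicate only. The hotspot at the promoter reached the highest deposited -log10 q value of 100 in both replicates in 82 of these 82 members, against 83.1% of all genes with a shared promoter region.

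The 4 members without a promoter region were all paralogues, and none of them had a peak or a hotspot within 1 kb of a start in either replicate. Distances were taken from an annotated start to the centre of the nearest shared region. From the start of Rpl10l (chr12:66283379-66284401), the testis copy of Rpl10, it was 775080 bp. From a start of Rpl39l (chr16:10170226-10174911), the testis copy of Rpl39, it was 22623 bp. From a start of Rpl3l (chr17:24727820-24736143), the muscle paralogue of Rpl3, it was 3379 bp. A region at the promoter of Msrb1 lay nearer to the other end of Rpl3l, 378 bp downstream of the gene body, and the member Rps2 lay 5890 bp away from the gene. From the start of Rps27rt (chr9:114982366-114982739), a retrogene of Rps27, it was 3768 bp, and the nearest region to the gene body was 3395 bp downstream of it, at a promoter of Osbpl10. The parent genes Rpl10, Rpl39, Rpl3 and Rps27 each had a shared promoter region. How reads that match several places in the genome were treated is not given in the sources used here, and the part of such reads in the missing peaks was not tested. A further 6 protein-coding symbols ending in -ps and a number, which the rule leaves out, also had neither a peak nor a hotspot at a start in either replicate.

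The 4 accessible paralogues had signals within the range of the core genes. Signal here is the deposited peak value, a whole number with no stated unit or scaling, and it was read only by rank within a replicate's own list. Rpl36al, a copy of Rpl36a, had a signal of 106 in replicate 1 and of 122 in replicate 2. Rpl22l1, the paralogue of Rpl22, had 104 and 114. Rpl7l1, a relative of Rpl7, had 105 and 109. Rps27l, a relative of Rps27 known as a p53 target, had 101 and 114. All 4 stood within the top 5% of peaks in both replicates, and Rps19bp1, with 106 and 109, did too.

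Promoter peaks of the members ranked high among all peaks of the tissue. For each accessible gene the strongest shared region within 1 kb of a start was taken. Its median signal over the 82 members was 105 in replicate 1 and 113 in replicate 2, against 89 and 100 over the 14558 accessible protein-coding genes. As a percentile among all peaks of the replicate, the members' medians were 97.0 and 97.2, and those of all accessible genes 91.9 and 93.0. The lowest member stood at 76.9 in replicate 1 and at 83.3 in replicate 2. The top 5% of peaks in both replicates held 51 of the 82 members (62.2%), against 34.1% of accessible genes and 22.6% of all protein-coding genes. Small subunit genes reached it in 23 of 31 cases (74.2%) and large subunit genes in 23 of 46 (50%), and the difference between the subunits was not tested. Among peaks at starts of protein-coding genes only, the members' median percentile was 91.0.

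**Figure D1:**
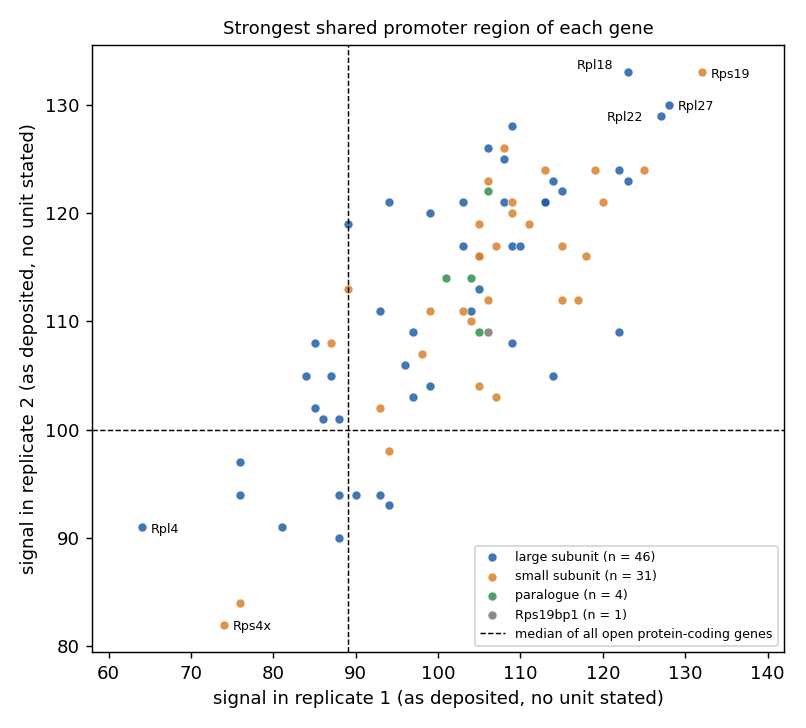
Each point is 1 gene, placed by the deposited signal of its strongest shared promoter region in replicate 1 (horizontal axis) and replicate 2 (vertical axis), and coloured by class; dashed lines mark the medians of all accessible protein-coding genes, 89 and 100. Most points lie to the right of and above both lines, with Rps19 at the upper end and Rpl4 and Rps4x at the lower end.

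Rps19 had the highest rank of all members. This small subunit protein, the gene best known from Diamond-Blackfan anaemia, had a region at chr7:24884256-24884445 whose signal was 132 in replicate 1 and 133 in replicate 2. Rpl27 of the large subunit followed with 128 and 130 (chr11:101442196-101442505). Rpl22, a large subunit protein known for binding other RNAs, had 127 and 129 (chr4:152325676-152325845). Rpl18 had 123 and 133 (chr7:45715276-45715445), and Rps21 had 125 and 124 (chr2:180257176-180257325). In each of these 5 genes both replicates placed the region above the 99th percentile.

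At the other end, Rpl4 had a signal of 64 in replicate 1 and of 91 in replicate 2 (chr9:64173256-64173425), at percentiles 76.9 and 88.8. Rpl4 is a large subunit protein that lines the exit tunnel, and its gene showed the widest gap between replicates, 11.9 percentile points. Rps4x, an X-linked small subunit gene, had 74 and 82 (chrX:102189276-102189465). Rpl35a had 76 and 94 (chr16:33056156-33056465), and Rpl19 had 81 and 91 (chr11:98026836-98027005). These 4 lay below the medians of all accessible genes in both replicates. Across the 82 members the percentile in replicate 2 minus that in replicate 1 had a median of 0.36 points and ran from -3.89 to 11.9. It was within 5 points in 75 members, and 50 were higher in replicate 2. The median size of this gap was 1.16 points. It sets no limit beyond which members differ, and members close in rank cannot be told apart from these replicates.

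**Figure D2:**
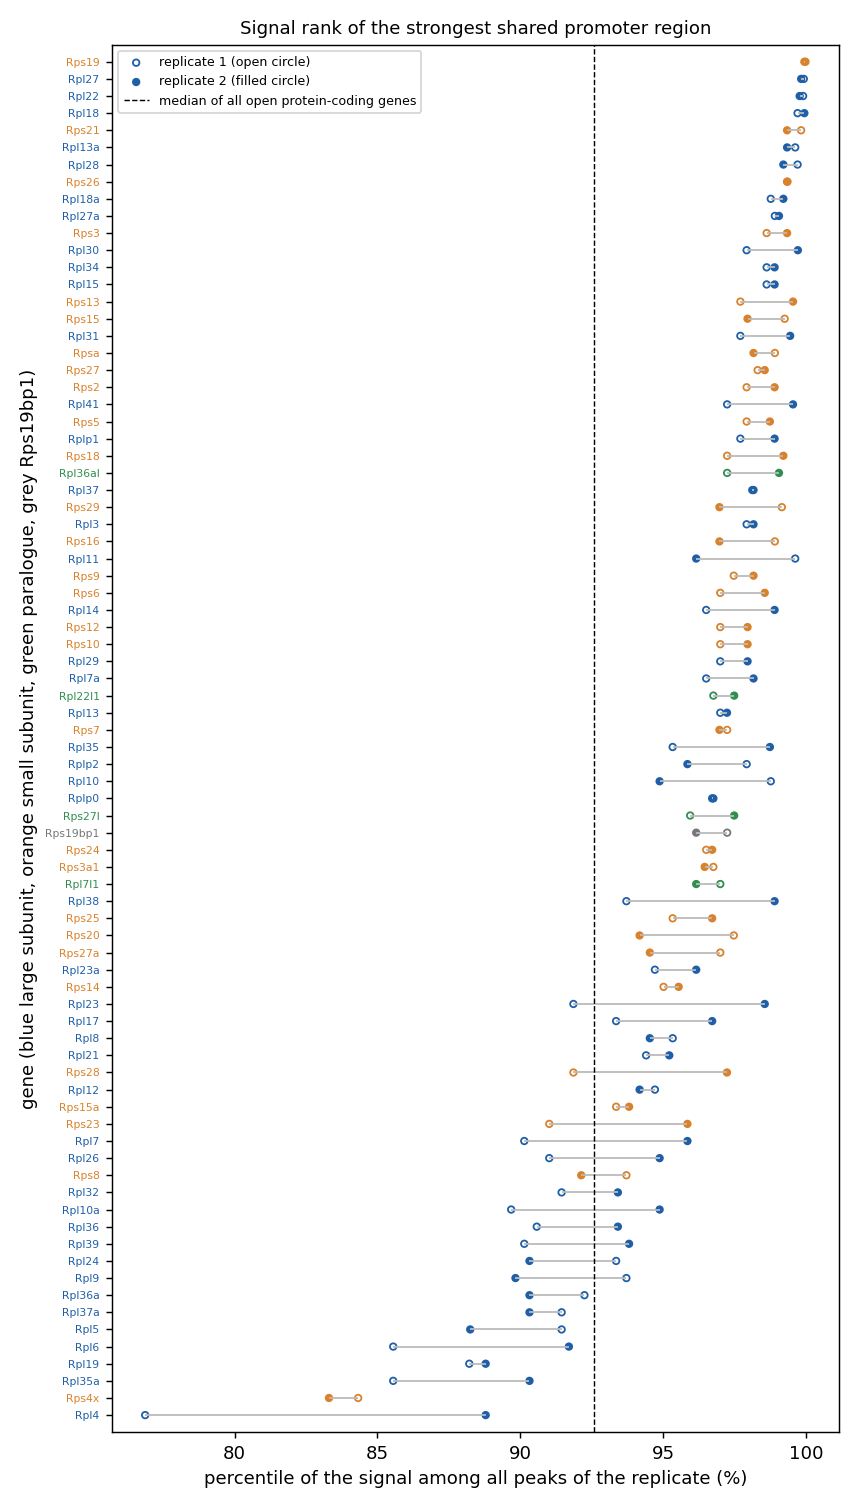
Each row is 1 accessible gene, ordered by mean rank, with the percentile of its strongest promoter signal among all peaks of replicate 1 (open circle) and replicate 2 (filled circle). Most rows sit to the right of the dashed line, the median of all accessible protein-coding genes, and Rpl4 has the widest gap between its circles.

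Genes with known special roles were spread over this range. They were picked for those roles with their values in view. Rpl5 and Rpl11 bind 5S ribosomal RNA and, outside the ribosome, the p53 regulator Mdm2. Rpl5 had a signal of 88 in replicate 1 and of 90 in replicate 2, and Rpl11 had 122 and 109, so the pair lay apart in both replicates. The stalk proteins that recruit elongation factors were closer together, with 104 and 111 at Rplp0, 108 and 121 at Rplp1, and 109 and 108 at Rplp2. Rps6, the substrate of S6 kinase, had 105 and 119. Rps27a, made as a fusion with ubiquitin, had 105 and 104. Rps2 and Rps3 sit at the mRNA entry channel of the small subunit, and they had 109 and 121, and 113 and 124.

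Accessible regions of the members sat on or just upstream of a start. The centre of the strongest region lay at a median of 36.5 bp upstream of the nearest annotated start, against 42 bp over all accessible genes. It was upstream in 69 of 82 members (84.1%, against 75.1%) and the region covered a start in 67 (81.7%, against 58.5%). A start was also covered in 64 of 78 mitochondrial ribosomal protein genes (82.1%), so this was not particular to the members. The share was 66.7% in other translation genes known for TOP mRNAs and 53.8% in ribosome assembly genes. In genes of the mTOR pathway and of TOP control it was 54.5%. Summed over genes, shared regions covered 97.6% of members at 55 bp upstream, where the curve was highest, and 73.3% of all accessible genes at their own highest point, 53 bp upstream. At 500 bp downstream the shares were 22.0 and 15.3%. Members had a median of 6 annotated starts and all genes 3, which gives a member more chances of a start near a region. With the 5' end of the gene record in place of the nearest start, the highest shares were 80.5 and 61.5%.

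**Figure D3:**
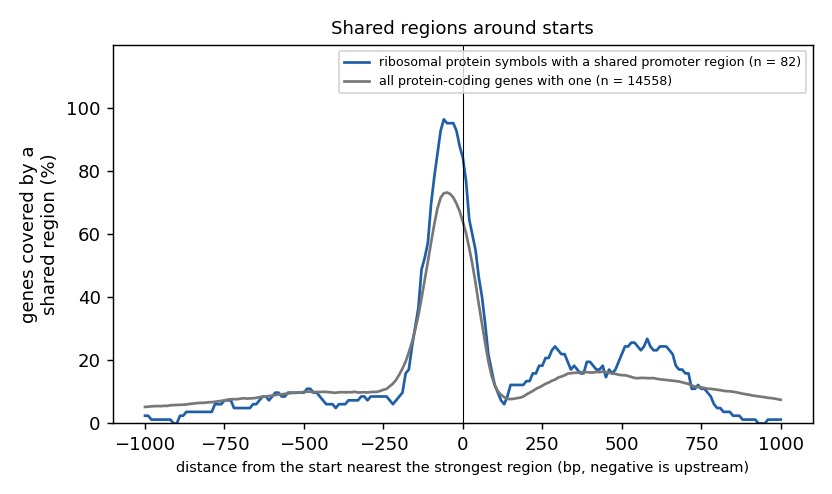
The share of genes whose sequence is covered by a shared region (vertical axis, percent) is plotted against distance from the annotated start nearest the strongest region (horizontal axis, bp) for the 82 members and for 14558 accessible protein-coding genes. The curve of the members rises to 97.6% and that of all genes to 73.3%, both upstream of the start, and a lower rise follows downstream.

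In 4 members no shared region lay within 1 kb of the 5' end of the gene record. The strongest region was centred 1348 bp downstream of that end in Rps10, 1875 bp in Rps2, 1883 bp in Rpl17 and 27503 bp in Rps14. In each of them it lay at another annotated start, within 77 bp of it. Rps24 and Rpl3 had regions at both places. Their strongest was centred 3546 bp downstream of the 5' end in Rps24, over the TOP-type start shown above, and 8397 bp downstream in Rpl3, near another annotated start.

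A further region beside the strongest was common. Of the 82 members 60 (73.2%) had at least 2 shared regions within 1 kb of a start, against 66.5% of accessible genes and 44.2% of all genes. Members have a median of 6 annotated starts and all genes 3, which gives a member more windows. Ribosome assembly genes reached 88.5%, genes of the mTOR pathway and of TOP control 90.9%, and other TOP mRNA genes 73.3%. Mitochondrial ribosomal protein genes reached 53.8%. The share was 87.0% in the large subunit (40 of 46) and 54.8% in the small subunit (17 of 31), a difference that was not tested. Rpl18 had 6 such regions, and Rpl3, Rpl7, Rpl12, Rpl32, Rps18, Rps24 and Rps29 had 4 each. In all, replicate 1 had 211 promoter peaks at members, of which 187 (88.6%) lay in shared regions, and replicate 2 had 259, of which 194 (74.9%) did. Peaks of a single replicate had a lower median signal, 36 in replicate 1 and 42 in replicate 2, against 76 and 84 for those in shared regions. The highest signal of such a peak was 55 in replicate 1 and 93 in replicate 2.

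TOP-type starts were more frequent among members than among genes in general, by annotation alone. A start was counted when it read C followed by at least 4 further pyrimidines. This held for 27 of 229 protein-coding starts of members (11.8%) and for 2.18% of 54308 starts of all protein-coding genes. Runs of at least 8 began 4.80% of member starts and 0.624% of all starts. By gene, 23 of 86 members (26.7%) had such a start, against 5.12%. After Rps24 the longest runs were 14 in Rpl32, 13 in Rps2 and 12 in Rpl10. Rps27rt had a run of 6 and no accessible promoter. These counts rest on where the annotation places the start, and a shift of a base or more ends a run.

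Short strings of letters were counted in the shared promoter regions on both strands, and a match is a description, not a bound site. There were 8 strings, for ETS factors, YY1, the GC box of Sp1-type factors, CREB, NFY, NRF1 (its palindromic core), the E-box and the TATA box, each spelled out beside its result except that of NRF1. No string contains another, though matches may share bases. The shares that follow are of the 82 accessible members and of the 14558 accessible protein-coding genes.

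The ETS string, CCGGAAG, was in the regions of 30 members (36.6%), against 19.3% of all accessible genes, and in the 150 bp on either side of the nearest start the shares were 41.5 and 17.2%. The YY1 string, AAGATGGC, was in 10 members (12.2%), against 4.29%, and in the fixed window in 14.6 and 5.25%. Of the 12 YY1 matches in that window, 9 lay downstream of the start, with a median distance of 41 bp, and over all genes 74.9% of YY1 matches did. ETS matches lay at a median of 21 bp upstream. The ETS string and the GC box stood together in 21 members (25.6%), against 13.6%. The ETS share was 37.0% in the large and 38.7% in the small subunit by regions, and 39.1 and 48.4% in the fixed window, a difference that was not tested.

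The GC box, GGGCGG, was in 61.0% of members and 68.0% of all accessible genes, and the NFY string, CCAAT, in 40.2 and 43.6%. The CREB string, TGACGTCA, was in 8.54 and 4.05%, and the NRF1 string in 3.66 and 2.01%. The TATA string, TATAAA, was in 12.2 and 8.12% of the regions and in 11.0 and 4.99% of the fixed window. Of its 11 matches in that window in members, 8 lay downstream of the start, against 33.9% of matches over all genes. The median position was 19.5 bp downstream in members and 27.5 bp upstream over all genes. The E-box, CACGTG, was in 19.5 and 13.7% of the regions but in 8.54 and 9.42% of the fixed window, so its order turned with the window. A run of at least 10 pyrimidines on the gene's strand was in the strongest region of 39 members (47.6%), against 26.0%. A run of at least 10 purines was in 21 (25.6%), against 26.0%. Both runs were counted after the other results had been seen.

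**Figure D4:**
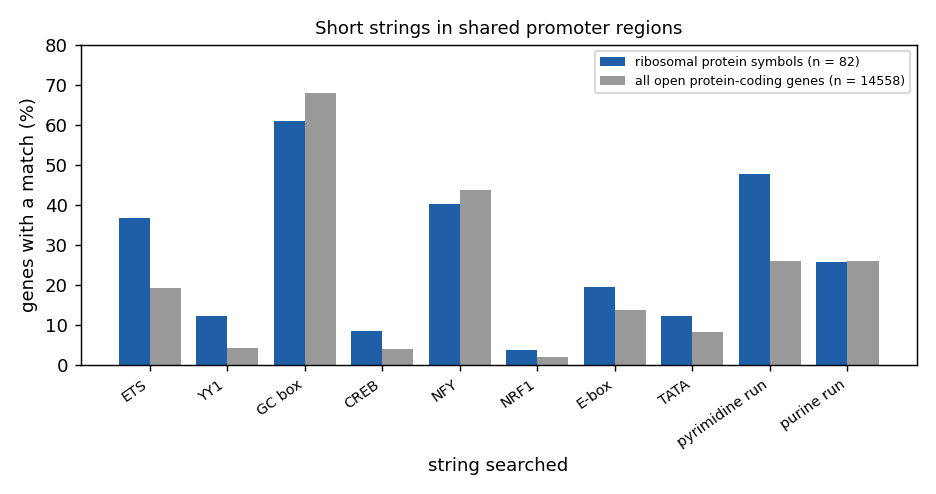
Bars give the percent of genes with at least 1 match for each string searched (horizontal axis) among 82 accessible members and 14558 accessible protein-coding genes; the pyrimidine and purine runs refer to the strongest region and the gene's own strand. The ETS and YY1 strings and the pyrimidine run have taller bars in the members, and the GC box and NFY string slightly shorter ones.

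None of the 8 strings was found in 7 members (8.54%), against 12.9% of all accessible genes. Rpl22 and Rpl27, the third and second strongest members, were among these 7, with Rpl9, Rpl28, Rps12, Rps15 and Rps26. Rpl4, Rps4x, Rpl19 and Rpl35a, all of low signal, held the GC box. High signal among the members was thus found with and without these letters. Base composition of the strongest region was a little lower in GC, at a median of 59.4% against 64.0%, and CpG was 8.24 per 100 bp against 7.89.

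Some promoters were shared with a gene running the other way. A divergent protein-coding gene started within 1 kb of 9 members (10.5%), against 6.75% of all protein-coding genes. Starts here were the 5' ends of the gene records, and pairs whose records overlap at those ends were not counted. Strongest regions of other members also lay within 1 kb of another gene's start, as in Rpl15 (Nkiras1) and Rps27a (Clhc1). In 7 of the 9 the strongest region served both starts. These were Rps28 with Ndufa7, 10 bp apart, Rps27 with Rab13 (44 bp), Rpl9 with Lias (53 bp), Rpl36al with Mgat2 (74 bp), Rpl7a with Med22 (87 bp), Rpl35a with Iqcg (235 bp) and Rpl4 with Zwilch (271 bp). Rpl4 and Rpl35a are also among the members of low signal. In the other two pairs the strongest region was elsewhere. Rps2 and Rnf151 start 53 bp apart and shared no region, and Rps24 and Polr3a start 67 bp apart and shared 2 weaker ones.

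Member loci were short, and their regions, promoters included, were dense. The locus, taken as the gene body plus 10 kb at each end, held a median of 5 shared regions (range 0 to 12), against 4 over all protein-coding genes and 5 over accessible ones, and 82% of all genes had at least 1. The median member locus was 23.3 kb long and that of all genes 37.4 kb. Per 10 kb the medians were 1.90 in members, 1.08 in accessible genes and 0.791 in all genes. Ribosome assembly genes had 1.96 and other translation genes known for TOP mRNAs 2.13, so such density was not particular to the members. Mitochondrial ribosomal protein genes had 1.33, and genes of the mTOR pathway and of TOP control 1.17. Of the 405 distinct regions in member loci, 178 (44.0%) lay at the member's own promoter and 107 (26.4%) at promoters of other protein-coding genes, near 44 members. A further 99 (24.4%) lay in flanks, 9 at starts of non-coding genes, 8 in introns and 4 in exons. A region within 1 kb of starts of both a member and another gene was counted as the member's own. Regions were divided in this way for members only, so whether these shares are usual for a locus is not known. Regions at own promoters had a median signal of 81.5 in replicate 1 and 92 in replicate 2, and those in flanks 58 and 71.

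The fullest loci owed their counts to neighbours in part. Rpl18 had 12 regions, with 6 at its own promoter, 4 at other promoters and 2 in the flank. Each of those 6 also lay within 1 kb of a start of Sphk2 or Fam83e. Rpl23a also had 12, of which 10 were at promoters of other genes, and Rplp2 had 11, of which 8 were. Rpl3, Rpl11, Rpl19 and Rps19bp1 had 9 each, and 3 of those at Rpl11 were in introns. Rpl7, Rpl7a, Rpl7l1 and Rpl12 had 8 each. At the other end Rpl10l and Rpl39l had 0, and Rpl36a and Rps4x, both on the X chromosome, had 1, their own promoter. In 10 members every region of the locus was at the member's own promoter, a count not made for other genes. In Rpl9, Rpl15 and Rps27a, which are among these 10 members, these regions were also near a start of another gene. The 5 regions near Rpl3l were 3 promoters of other genes and 2 flanking sites, and the 4 near Rps27rt were all promoters of other genes. The loci of Rpl3l and Rps2 shared 2 regions.

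**Figure D5:**
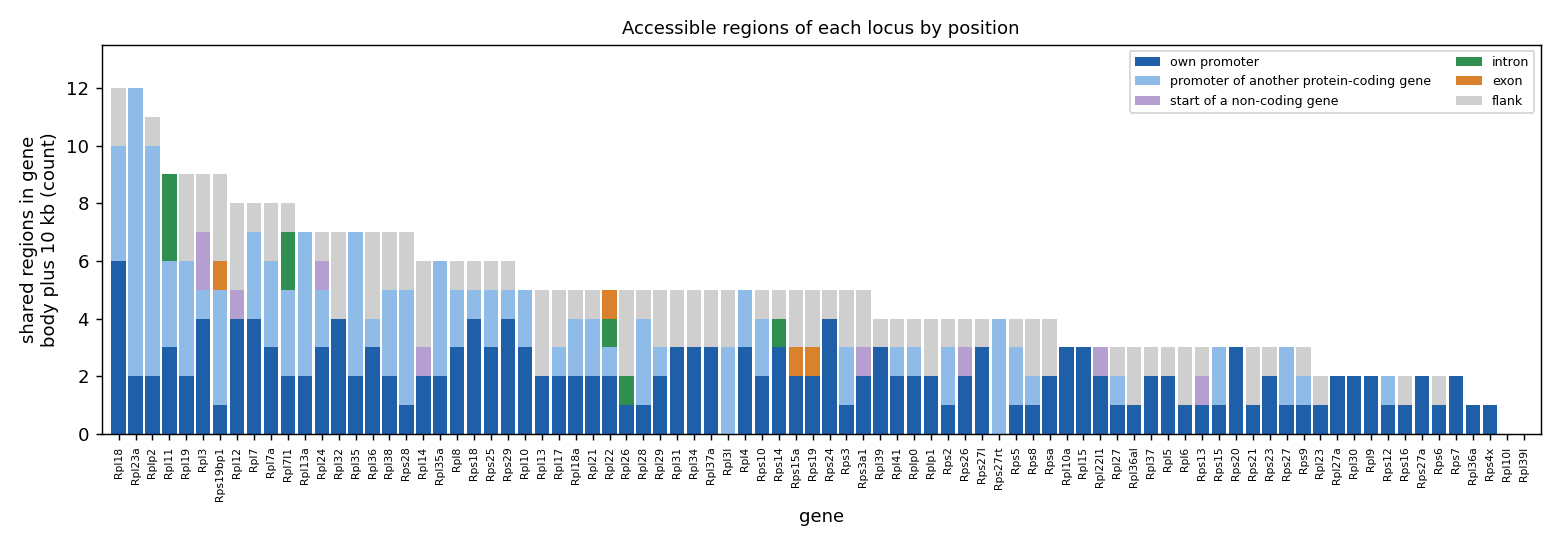
Each bar is 1 gene and its height is the number of shared regions in the gene body plus 10 kb on either side, divided by where they lie. A region near starts of both the gene and another gene counts as its own promoter. Bars run from 12 at Rpl18 and Rpl23a to 0 at Rpl10l and Rpl39l, and own promoters make up 178 of the 405 distinct regions over all 86 members.

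Regions with strong signal also lay away from any protein-coding promoter, in flanks. A region 3923 bp upstream of Rpl3, in an intron of Syngr1 (chr15:80095716-80095865), had a signal of 108 in replicate 1 and of 107 in replicate 2. A region downstream of Rpl18, in an intron of Fam83e (chr7:45727556-45727865), had 100 and 113. Downstream of Rpl14 one had 97 and 117 (chr9:120582716-120582885), and downstream of Rps18, in an intron of Wdr46 (chr17:33949176-33949325), one had 95 and 109. A flanking region is listed with the member for its distance only, and which gene it acts on was not tested.

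Other genes of translation were accessible as well. A shared promoter region was present at 15 of 15 other translation genes known for TOP mRNAs, such as Eef1a1, Eef2 and Tpt1, at 26 of 26 ribosome assembly genes, at 11 of 11 genes of the mTOR pathway and of TOP control, and at 78 of 78 mitochondrial ribosomal protein genes. Of all protein-coding genes 66.4% had one. The mitochondrial set had median signals of 97 in replicate 1 and 106 in replicate 2, and 35 of 78 (44.9%) reached the top 5% in both replicates. The other TOP mRNA genes had 112 and 119, and 12 of 15 (80%) reached it. Ribosome assembly genes had 106 and 114, near the members' 105 and 113, and 15 of 26 (57.7%) reached it. Genes of the mTOR pathway and of TOP control had 100 and 113, and 6 of 11 (54.5%) reached it. Of all accessible genes 34.1% reached it, and of the accessible members 62.2%. TOP-type starts were found in 6 of the 15 other TOP mRNA genes, in 5 of 78 mitochondrial ribosomal protein genes and in 0 of 26 ribosome assembly genes. Over all protein-coding genes the share was 5.12%. The differences between these sets were not tested.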

How the data were processed

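Both libraries of newborn stomach were used. Peaks and hotspots were deposited per replicate on mm10. The aligner, peak caller, thresholds and read numbers were not given in the sources used here, so the depth is unknown. The peak signal, as deposited by the authors, is a whole number without a stated unit. The hotspots carry, by the layout of the deposited files, a -log10 q value with a highest value of 100. Peaks on scaffolds and the mitochondrial chromosome were left out.

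Genes and starts came from GENCODE M21, with 27 repeated symbols dropped. Regions were joined with bedtools 2.31.1, and counting used Python 3.11.15, pandas 2.3.3 and pysam 0.24.0. Percentiles rank a peak within its own list, with ties at their middle. The named genes are the members without a promoter region, the paralogues, Rps19bp1, the extremes of signal rank, promoter regions and locus regions, the 5 strongest regions outside promoters and the divergent pairs, with ties at a limit named where few. Some of these genes are not reported here and not drawn by name. The members and lists were chosen with earlier results of these data known. Windows, overlap, replicates and hotspots were varied.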

Additional observations from a re-analysis of the deposited data

How the results depend on the processing

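The count of 82 members with a shared promoter region was found under every setting tried (windows of 250 bp and 2.5 kb, the stronger 50% of peaks, 50% reciprocal overlap, each replicate alone, hotspots, starts of protein-coding transcripts) except the 5' end of the gene record, with 78. There Rpl17, Rps2, Rps10 and Rps14 dropped out beside the 4 paralogues. The 2.5 kb window and each replicate alone could add members but hardly lose any, so their agreement says little. With the 5' end of the gene record the share of all protein-coding genes was 61.6%. It was 62.6% at 250 bp, 70.0% at 2.5 kb and 59.2% with the stronger 50% of peaks. The median of 5 regions per locus became 2 over gene bodies alone, 14 with 50 kb on either side, 1 without promoter regions and 3 with the stronger 50% of peaks, and leaving out either replicate gave 5 to 6. The median signal percentile of 97.1 became 91.0 among peaks at starts of protein-coding genes and was 97.0 to 97.2 in single replicates. The share of members with the E-box fell from 19.5% to 8.54% in the fixed window. The cause of these changes was not tested. Some settings also searched a shorter or longer stretch, and the part of its length was not tested either. Single-member region counts moved in 23 of 86 members at 250 bp, in 24 without replicate 1 and in 13 without replicate 2. No paired analysis was possible because the series has 1 group. Unknown depth limits what can be said of the members without peaks.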

Other observations

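Members on the X chromosome ranked lower than those on autosomes. Rpl10 had signals of 114 (replicate 1) and 105 (replicate 2), Rpl36a had 90 and 94, Rpl39 had 85 and 102, and Rps4x had 74 and 82. Their median percentiles were 91.2 and 92.1, against 97.0 and 97.5 for the 78 accessible members on autosomes. The same order held for all accessible protein-coding genes, with medians of 80.1 and 80.3 for 443 genes on X and 92.2 and 93.4 for 14111 on autosomes. This comparison was made after the values were seen and was not tested.

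Small nucleolar RNA genes, whose products guide the modification of ribosomal RNA, lay inside 30 of the 86 members, 58 in all, with 5 in Rpl4. The same count was not made over all protein-coding genes, so whether members hold more of them is not known.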
